A study of Mus musculus with 14 samples.

Results

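The genes described here are 40 components of Wnt signaling in mouse lung: 8 ligands, 15 receptors and co-receptors, 8 secreted antagonists, 4 intracellular modulators and 5 nuclear effectors. They were chosen by gene symbol, with earlier results of these data known, out of 18193 genes on the array. A probe set naming the gene alone was found for 39 of the 40, and no such probe set was found for Tcf7, a nuclear effector, so it is not analysed here. Where a gene had several probe sets, which 32 members did, the one with the highest mean over all arrays stood for it.

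Whole lungs of ICR mice were dissected at embryonic days 12, 14, 16 and 18 (E12 to E18), at postnatal days 2 and 10 (P2 and P10) and at postnatal day 30, called Adult. The study followed normal development, with no treatment and no mutant allele. Total RNA was hybridised to 14 oligonucleotide arrays, with 2 replicates at every one of the 7 ages. All arrays carry the label female, which may describe the dams or the lungs sampled. The lungs were pooled, and the sources used here give neither the size of a pool nor whether the replicates of an age were pooled separately. The p-values therefore measure the spread between these samples, which may be technical. Values are deposited log2 signals, and a change of 1 is a doubling. Because each array covers a whole organ, fewer cells of a type and less RNA per cell cannot be told apart.

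Wnt proteins are secreted lipid-modified ligands that bind Frizzled receptors together with the co-receptors Lrp5 or Lrp6. In the canonical branch this stabilises beta-catenin, which enters the nucleus and works with TCF and LEF factors, whereas other ligands signal through Ror receptors and cell polarity proteins. Antagonists outside the cell bind either the ligand (the Sfrp family and Wif1) or the co-receptor (Dkk1 and Dkk2), and Axin2 and Nkd1 are feedback inhibitors that the pathway itself induces. In lung, Wnt2 and Wnt2b from the mesenchyme together specify the organ, and Wnt7b and Wnt5a act in epithelial and mesenchymal growth and in distal patterning.

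Log2 signals of all arrays ran from 2.53 to 14.99, and array medians lay between 6.55 and 6.62. Markers of lung tissue were present on every array, with mean log2 signals of 8.98 to 10.37 for 6 epithelial genes, 11.18 to 12.08 for 7 mesenchymal genes and 8.58 to 11.23 for 6 endothelial genes. The mean log2 signal of the 8 heart muscle genes was 11.1 in E16 replicate 1 and 8.35 in E16 replicate 2, against 6.42 to 9.40 on the other arrays. Among thymus genes, Rag1 was 5.80 in E16 replicate 1 and 3.23 in replicate 2. The ventricular gene Myl2 was 12.63 in E16 replicate 1 and 8.84 in replicate 2, against 4.65 to 6.27 on the other arrays, so E16 replicate 2 was not free of heart signal either. The counts of members called in the steps to and from E16 are given with and without replicate 1.

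Promoters are shown for 4 members that carry the P10 and E18 patterns described below: Wnt11 and Wif1, which were highest at P10, and Nkd1 and Axin2, the feedback inhibitors that rose between E16 and E18. The sequences are the 250 bases before the annotated start in RefSeq's mouse annotation, build GRCm38.p6. All 4 genes lie on the + strand. The windows are chr7:98834862-98835111 for Wnt11 (the start site furthest upstream of 2), chr10:121033754-121034003 for Wif1, chr8:88527383-88527632 for Nkd1 and chr11:108920099-108920348 for Axin2. Capitals mark a TCF/LEF core, searched on both strands as CTTTG followed by AA, AT, TA or TT.
Wnt11: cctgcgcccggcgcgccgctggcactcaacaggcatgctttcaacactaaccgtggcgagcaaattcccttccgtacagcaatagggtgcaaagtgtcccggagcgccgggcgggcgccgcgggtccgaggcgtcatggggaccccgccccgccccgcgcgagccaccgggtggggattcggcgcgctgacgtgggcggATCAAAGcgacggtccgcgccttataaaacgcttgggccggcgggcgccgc
Wif1: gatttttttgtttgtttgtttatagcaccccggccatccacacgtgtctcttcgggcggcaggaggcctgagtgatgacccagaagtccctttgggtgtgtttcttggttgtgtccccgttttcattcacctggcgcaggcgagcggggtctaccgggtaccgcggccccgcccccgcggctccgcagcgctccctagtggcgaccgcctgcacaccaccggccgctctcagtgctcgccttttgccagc
Nkd1: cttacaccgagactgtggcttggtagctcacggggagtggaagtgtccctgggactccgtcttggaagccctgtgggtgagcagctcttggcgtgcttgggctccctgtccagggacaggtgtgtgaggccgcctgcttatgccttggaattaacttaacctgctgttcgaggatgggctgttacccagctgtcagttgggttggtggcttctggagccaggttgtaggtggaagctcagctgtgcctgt
Axin2: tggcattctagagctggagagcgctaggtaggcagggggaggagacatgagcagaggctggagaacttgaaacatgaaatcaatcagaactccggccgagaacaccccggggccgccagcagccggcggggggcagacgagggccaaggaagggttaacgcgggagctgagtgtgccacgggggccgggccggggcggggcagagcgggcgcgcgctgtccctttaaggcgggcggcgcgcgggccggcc
Of these, the Wnt11 window holds 1 match, 51 bases before the start and on the reverse strand, and the others hold none of these letters. Promoters were matched for 28 members, and 6 of them (21.4%) hold at least 1 match: Dkk1 with 2, and Fzd7, Lef1, Tcf7l2, Wnt11 and Wnt5b with 1 each. The share over all 27025 genes with a promoter was 16.8%. A match is a description of the letters only.

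A gene counted as dynamic when its 7 means differed at an adjusted p under 0.05, its top mean (Max) exceeded 7 and its top and bottom means (Range) lay over 1.2 apart, or 2.3-fold. By this rule 18 of the 39 members were dynamic, against 26.7% of all genes. The members are genes known from lung and Wnt research, so the gap between these shares is given as a description. Max was above 7 in 32 members, and the other 7, Wnt2b, Wnt5b, Lrp5, Lgr5, Frzb, Dkk1 and Dkk2, were dim at every time point.

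By role, 5 of 8 ligands, 7 of 15 receptors, 4 of 8 secreted antagonists, 1 of 4 intracellular modulators and 1 of 4 nuclear effectors were dynamic. Wnt2, Wnt7b, Fzd2, Fzd3, Ror1, Ror2, Sfrp1 and Sfrp2 fell with the order of the time points. Wnt4, Fzd4, Fzd5, Fzd6, Dkk3 and Wif1 rose with it. Nkd1 peaked at E18, and Wnt5a, Wnt11 and Lef1 followed other courses.

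**Figure D1:**
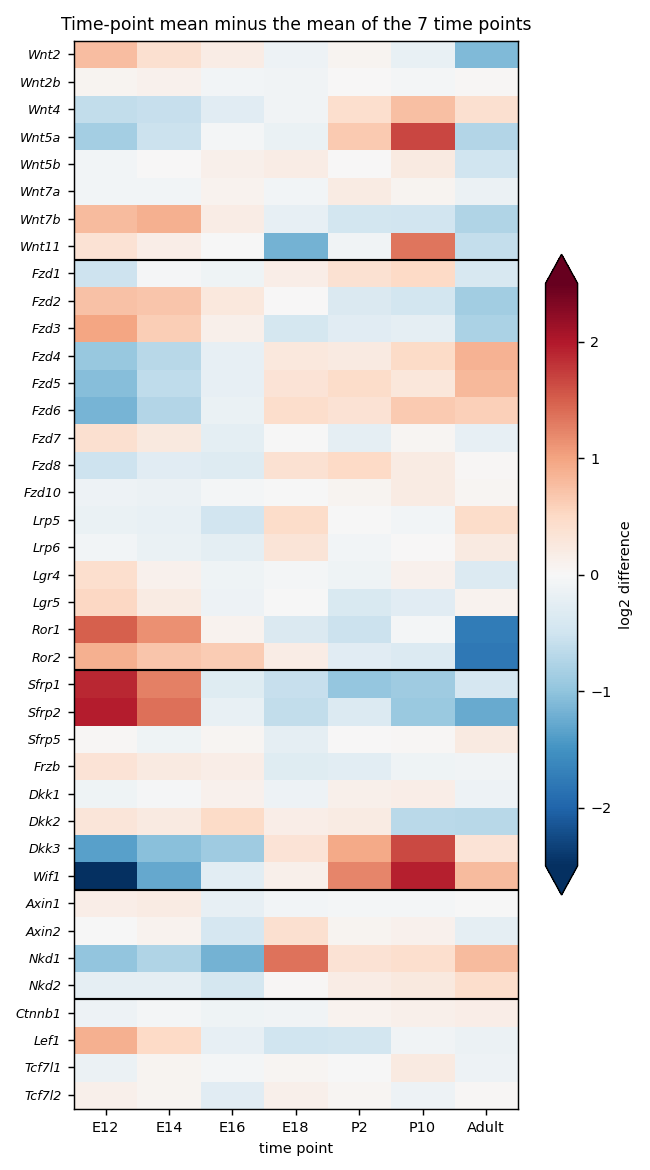
Time-point means of the 39 members (rows, grouped by role and separated by black lines) minus the mean of each member's 7 time points, in log2 units, with red above and blue below. Ror1, Sfrp1 and Sfrp2 are dark red at E12, Wnt5a, Wnt11, Dkk3 and Wif1 at P10, and Nkd1 at E18.

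The dynamic members had their highest means mostly at 2 ages. At E12 were 8 of the 18 (44.4%), against 29.5% of the 4864 dynamic genes of the array. At P10 were 6 (33.3%), namely Wnt4, Wnt5a, Wnt11, Fzd6, Dkk3 and Wif1, against 8.14% of the dynamic genes. The largest step between neighbouring ages was Adult against P10 for 7 members (38.9%, against 20.9% of dynamic genes) and E16 against E14 for 6 (33.3%, against 9.64%). The step from E16 to E18, the largest for 58.1% of dynamic genes, was the largest for 3 members (16.7%). Without E16 replicate 1 these steps were the largest for 6 members (Adult against P10), 6 (E16 against E14) and 4 (E18 against E16). These shares are descriptions, with no test.

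Between E12 and Adult, 28 members differed at an adjusted p under 0.05. Of these, 12 were higher in Adult, against 35% of all genes, and 16 were lower, against 30.2%. The median difference over the members was -0.07 on the log2 scale, and over all genes it was 0.08. The ligands had a median of -0.24, with 1 higher and 4 lower. The receptors had a median of 0.11, with 6 higher and 7 lower, and the secreted antagonists -0.22, with 2 higher and 4 lower. Both called intracellular modulators were higher, and the called nuclear effectors were 1 higher and 1 lower. Of the 11 members not called, 6 (Wnt5a, Wnt7a, Fzd1, Axin2, Tcf7l1 and Tcf7l2) had another probe set that was called.

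**Figure D2:**
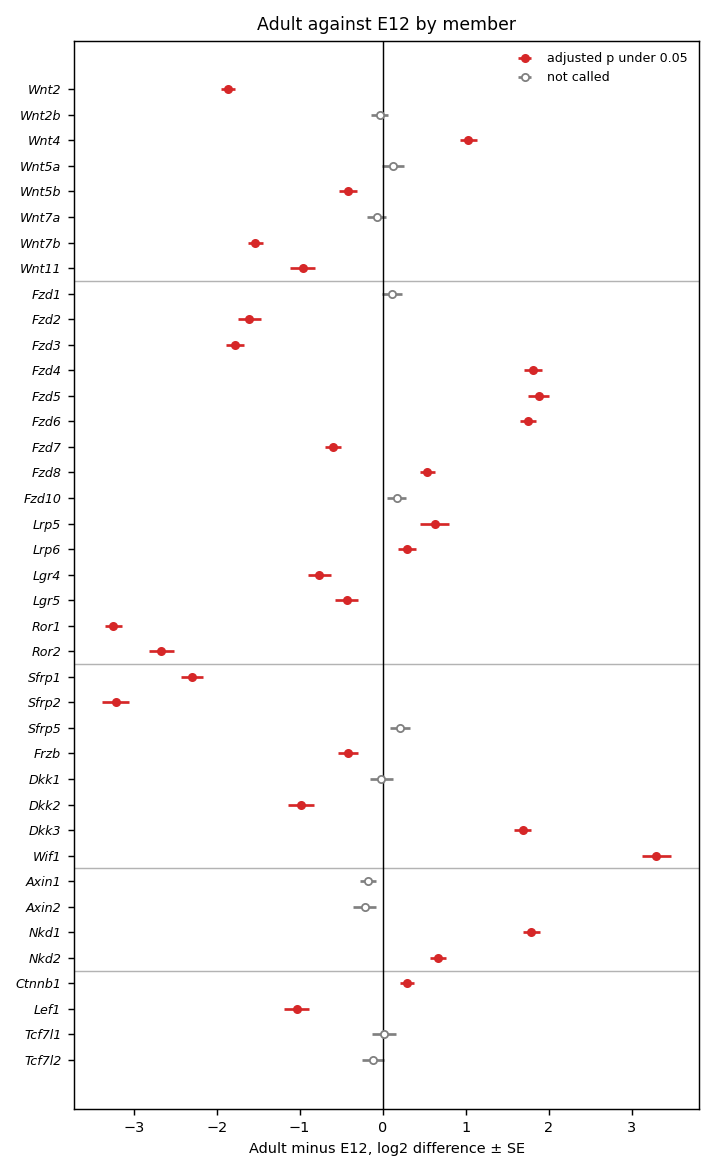
Adult minus E12 in log2 units for each member, with the standard error (SE) of the limma fit as bars, filled red where the adjusted p was under 0.05 and open grey where it was not; lines separate the roles. Ror1 (-3.25) and Sfrp2 (-3.22) lie furthest left and Wif1 (3.30) furthest right.

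Among the ligands, Wnt2 and Wnt7b fell, Wnt4 rose, and Wnt5a and Wnt11 were highest at P10. Wnt2, the mesenchymal ligand of early lung, was 11.00 and 11.10 at E12 and 10.71 and 10.63 at E14. It was 10.44 and 10.51 at E16, 10.12 and 10.19 at E18, 10.36 and 10.32 at P2, 10.05 and 10.13 at P10, and 9.18 and 9.19 in Adult (9.18 ± 0.012, SD, n = 2). Both E12 arrays lay above all the others and both Adult arrays below them. Adult was 3.65-fold lower than E12 (log2 -1.87, SE 0.0848, adjusted p = 2.89e-10), and the step from P10 to Adult alone was -0.91 (adjusted p = 3.67e-06).

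Wnt7b, a ligand of the airway epithelium, was 9.39 and 9.41 at E12, 9.51 and 9.47 at E14, and 8.73 and 8.87 at E16. The later arrays were 8.48 and 8.34 at E18, 8.14 and 8.17 at P2, 8.06 and 8.18 at P10, and 7.86 on both Adult arrays. The E12 and E14 arrays stood apart from all later ones. The fall was 1.54 on the log2 scale between E12 and Adult (SE 0.0897, adjusted p = 3.52e-09), with a step of -0.69 from E14 to E16 (adjusted p = 0.000185).

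Wnt5a, a ligand mainly of the Ror branch, was 6.55 and 6.36 at E12, 6.72 and 6.81 at E14, 7.17 and 7.35 at E16, and 7.15 on both E18 arrays. It then reached 8.06 and 7.89 at P2 and 8.77 and 9.21 at P10, and was 6.57 and 6.61 in Adult. Both P10 arrays lay above all others, and the Adult arrays lay between those of E12 and E14. P10 was 2.02-fold higher than P2 (log2 1.01, SE 0.133, adjusted p = 0.000507). Adult was 5.29-fold lower than P10 (log2 -2.40, adjusted p = 3.97e-08), while Adult minus E12 was 0.13 (adjusted p = 0.429), and by another probe set 0.71 (adjusted p = 0.000566). The rise of 0.82 from E18 to P2 was called here, and with the probe set of largest spread it was 0.38 (adjusted p = 0.0890).

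Wnt11, a ligand known from branching organs and cell polarity, was 8.28 and 8.16 at E12, 8.04 and 8.02 at E14, 7.92 and 7.76 at E16, and 6.44 and 6.90 at E18. After birth it was 7.70 and 7.86 at P2, 9.17 and 9.23 at P10, and 7.47 and 7.04 in Adult. The lowest arrays were thus those of E18 and the highest those of P10. The step from E16 to E18 was -1.17 (SE 0.153, adjusted p = 3.37e-05), that from E18 to P2 was 1.11 (adjusted p = 0.000298), and that from P2 to P10 was 1.42 (adjusted p = 0.000107). From P10 to Adult it fell by 1.95 (adjusted p = 7.56e-07). A smooth curve over the order of ages did not call Wnt11 dynamic (adjusted p = 0.474).

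Wnt4, a ligand also active in kidney and reproductive tract, had time-point means of 7.20 at E12, 7.73 at E18 and 8.24 at P2, then 8.57 at P10, its highest, and 8.23 in Adult. Adult was 2.04-fold higher than E12 (log2 1.03, SE 0.104, adjusted p = 9.73e-07). The fall of 0.34 from P10 to Adult (adjusted p = 0.0276) was no longer called without P10 replicate 2 or without Adult replicate 1. Wnt5b was dim and 0.42 lower in Adult than at E12 (adjusted p = 0.00399). Wnt2b, which acts with Wnt2 in specifying the lung, lay between 5.08 and 5.42 on all arrays and was called in no comparison.

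Wnt7a, a ligand of epithelial and reproductive tissues, gave different pictures by probe set. The probe set with the highest mean stayed between 7.58 and 8.03 on the 14 arrays, with Adult minus E12 at -0.07 (adjusted p = 0.621). A second probe set was 5.95 and 5.51 at E12, 6.51 and 6.75 at E16, 7.69 and 7.76 at E18, and 8.5 and 8.6 in Adult. It was 2.82 higher in Adult (SE 0.134, adjusted p = 4.42e-10), with no overlap of the Adult arrays with any earlier age. Under the selection rule Wnt7a therefore does not count as changed.

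**Figure D3:**
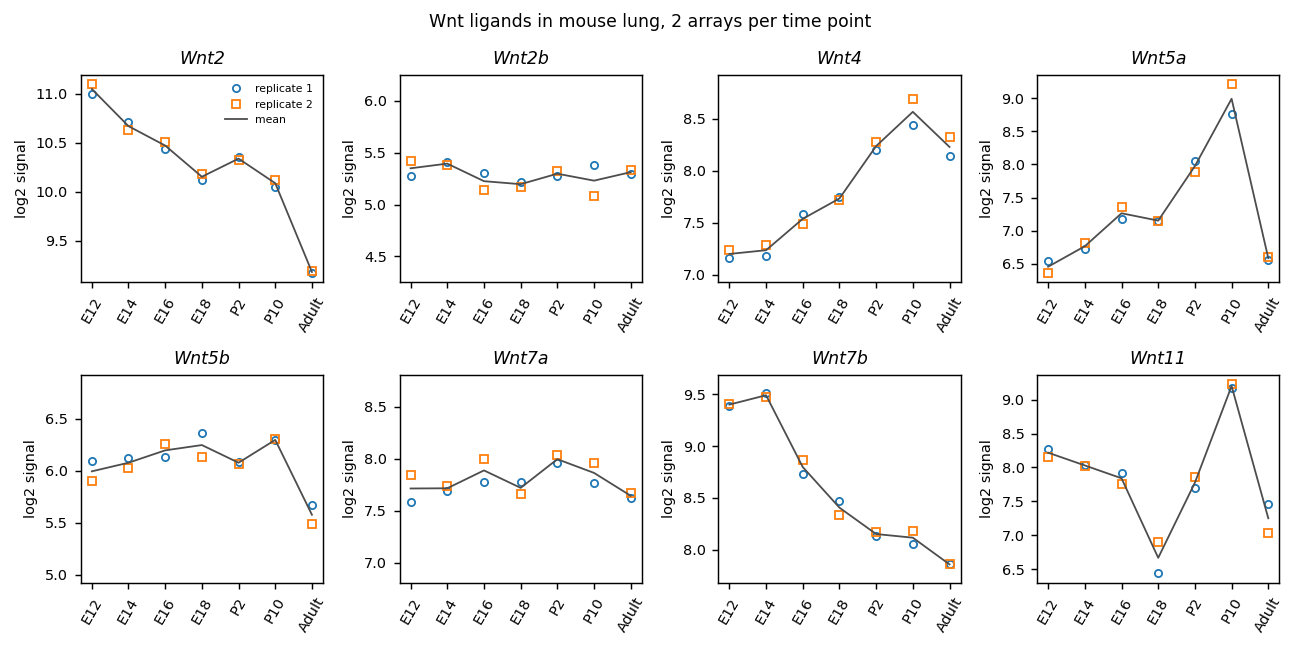
Log2 signal (y axis, own scale for each gene) of the 8 ligands on every array by time point (x axis), with replicate 1 as circles, replicate 2 as squares and the mean of both as a line. Wnt2 and Wnt7b fall to 9.18 and 7.86 in Adult, and Wnt5a and Wnt11 reach 8.99 and 9.20 at P10 before falling.

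Among the receptors the Ror genes and part of the Frizzled family moved in opposite directions. Ror1, a receptor tyrosine kinase that binds Wnt5a, was 10.16 and 10.42 at E12, 9.95 and 9.90 at E14, 8.91 and 8.84 at E16, and 8.38 and 8.48 at E18. It was 8.33 and 8.16 at P2, 8.70 and 8.77 at P10, and 7.00 and 7.08 in Adult. The Adult arrays lay more than 1 log2 unit below all others. Adult was 9.48-fold lower than E12 (log2 -3.25, SE 0.104, adjusted p = 1.14e-11), with steps of -1.05 from E14 to E16 (adjusted p = 1.94e-05) and -1.69 from P10 to Adult (adjusted p = 8.67e-08).

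Ror2, its close relative, was 8.25 and 7.86 at E12, 7.79 and 7.94 at E14, and 7.81 and 7.80 at E16. It was 7.18 and 7.54 at E18, 6.92 and 6.84 at P2, 6.81 and 6.83 at P10, and 5.56 and 5.21 in Adult. Adult again lay below every other age, 6.36-fold lower than E12 (log2 -2.67, SE 0.151, adjusted p = 2.53e-09) and below P10 by a log2 difference of -1.44 (adjusted p = 1.02e-05). At P10, Wnt5a was at its highest and both Ror genes were below their E12 levels, each measured against its own earlier signal.

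Fzd4, Fzd5 and Fzd6 rose and Fzd2 and Fzd3 fell, all 5 being seven-pass receptors for Wnt ligands. Fzd5 was 6.68 and 6.34 at E12, 6.98 and 6.87 at E14, 7.31 and 7.42 at E16, and 7.90 and 7.94 at E18. It was 7.98 and 8.08 at P2, 7.87 and 7.85 at P10, and 8.22 and 8.56 in Adult. Adult lay above all other ages, 3.69-fold higher than E12 (log2 1.88, SE 0.128, adjusted p = 1.67e-08).

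Fzd6, best known from planar polarity in skin, was 8.35 and 8.14 at E12, 8.70 and 8.66 at E14, 9.24 and 9.26 at E16, and 9.89 and 9.79 at E18. It was 9.76 and 9.78 at P2, 10.09 and 10.03 at P10, and 10.04 and 9.96 in Adult. Nearly all of its rise was complete at E18, and the P10 and Adult arrays did not separate fully. Adult minus E12 was 1.75 (SE 0.0920, adjusted p = 1.21e-09).

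Fzd4, the endothelial receptor for norrin as well as for Wnts, had means of 8.15 at E12, 8.90 at E16, 9.37 at E18 and 9.96 in Adult, a rise of 1.81 (SE 0.110, adjusted p = 5.41e-09). The mean log2 signal of the 6 endothelial markers rose over the same ages, from 8.67 and 8.58 at E12 to 11.07 and 11.23 in Adult. Of these markers 6 of 6 were called higher, against 35% of all genes. The part of endothelial content in the Fzd4 signal was not tested. Fzd2 had means of 10.82 at E12 and 9.21 in Adult (log2 -1.61, adjusted p = 2.26e-07), and Fzd3 of 9.57 and 7.79 (log2 -1.78, adjusted p = 5.28e-09).

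The other Frizzled genes changed less. Fzd7 was 0.60 lower in Adult than at E12 (adjusted p = 0.000107) and Fzd8 was 0.54 higher (adjusted p = 0.000209), with a step of 0.71 from E16 to E18 (adjusted p = 4.23e-05). Fzd1 differed by 0.11 between the ends (adjusted p = 0.457), yet its P10 mean of 10.59 was its highest and it fell by 0.90 to Adult (adjusted p = 0.000102). By its other probe set Fzd1 was lower in Adult than at E12 (log2 -0.71, adjusted p = 8.23e-05) as well as lower than at P10 (log2 -1.06, adjusted p = 1.03e-05). Fzd10 lay between 6.96 and 7.43 and was called in no comparison.

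The co-receptors Lrp5 and Lrp6 were higher at E18 than at E16 by the probe sets used. Lrp6 was 9.23 and 9.12 at E16, 9.81 and 9.66 at E18, and 9.30 and 9.37 at P2, so both E18 arrays lay above those of the neighbouring ages. It was 0.56 higher at E18 than at E16 (SE 0.105, adjusted p = 0.000702), and the fall of 0.40 to P2 (adjusted p = 0.0212) was not called without E18 replicate 1 or without either P2 replicate. By the other Lrp6 probe set neither step was called, at 0.21 (adjusted p = 0.393) and -0.24 (adjusted p = 0.442). Lrp5 was dim, at 5.32 and 5.03 at E16 and 6.32 and 5.89 at E18, a difference of 0.93 (adjusted p = 0.000836).

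For Lrp6 the probe sets disagreed between the ends, at 0.30 (adjusted p = 0.0258) for the one used and -0.51 (adjusted p = 0.0264) for another, so no direction is given from E12 to Adult. Lgr4 and Lgr5, receptors for the R-spondins that strengthen Wnt signals, were 0.76 (adjusted p = 0.000288) and 0.43 (adjusted p = 0.0152) lower in Adult than at E12. The Lgr5 call did not hold without either E12 replicate or without Adult replicate 2.

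Of the secreted antagonists 2 fell early and 2 rose until P10, and Wif1 had the widest Range of all members (4.45). Sfrp1, which binds Wnt proteins outside the cell, was 10.16 and 10.12 at E12, 9.71 and 9.34 at E14, 8.14 and 7.76 at E16, and 7.67 and 7.69 at E18. It was 7.24 and 7.34 at P2, 7.35 and 7.39 at P10, and 7.87 and 7.82 in Adult. The E12 and E14 arrays lay above every later one. Sfrp1 fell by 1.57 from E14 to E16 (SE 0.131, adjusted p = 5.19e-06) and was 4.91-fold lower in Adult than at E12 (adjusted p = 2.94e-09).

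Sfrp2, of the same family, was 10.42 and 10.47 at E12, 9.98 and 9.72 at E14, 8.22 and 8.37 at E16, and 7.76 and 8.0 at E18. It was 8.11 and 8.19 at P2, 7.84 and 7.28 at P10, and 7.11 and 7.33 in Adult. As with Sfrp1, E12 and E14 stood apart from the rest. The step from E14 to E16 was -1.56 (SE 0.160, adjusted p = 2.79e-05), and Adult was 9.31-fold lower than E12 (log2 -3.22, adjusted p = 6.84e-10).

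Without E16 replicate 1, the array with more heart and thymus RNA, E16 against E14 was still called for both Sfrp1 and Sfrp2. The array kept, E16 replicate 2, held heart signal too, so this fit cannot show the step free of such tissue. Sfrp5, of the same family as Sfrp1 and Sfrp2, lay between 6.73 and 7.32 and was called in no comparison. Frzb, also an Sfrp-type ligand binder, was dim and 0.42 lower in Adult than at E12 (adjusted p = 0.00706), a call that did not hold without E12 replicate 2.

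Wif1, a Wnt-binding inhibitor, was 5.14 and 5.06 at E12, 6.04 and 6.65 at E14, 7.33 and 7.37 at E16, and 7.84 and 7.64 at E18. It was 8.69 and 8.97 at P2, 9.44 and 9.67 at P10, and 8.23 and 8.57 in Adult. The arrays of each age up to P10 lay above those of the age before. Adult was 9.84-fold higher than E12 (log2 3.30, SE 0.176, adjusted p = 1.45e-09) and 2.23-fold lower than P10 (log2 -1.16, adjusted p = 0.000246). The step from P2 to P10, 0.72 (adjusted p = 0.0253), was not called without either P2 replicate or without P10 replicate 2.

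Dkk3, a Dickkopf-family glycoprotein whose action on Wnt signals is less direct than that of Dkk1, was 7.45 and 7.38 at E12, 7.68 and 7.76 at E14, 8.03 and 7.73 at E16, and 9.08 and 9.12 at E18. It was 9.75 and 9.68 at P2, 10.41 and 10.42 at P10, and 9.04 and 9.17 in Adult. The P10 arrays were again the highest. The step from E16 to E18 was 1.22 (SE 0.104, adjusted p = 6.49e-07), that from P2 to P10 was 0.70 (adjusted p = 0.00123), and that from P10 to Adult was -1.31 (adjusted p = 7.99e-07).

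Dkk1, the classical Lrp5 and Lrp6 blocker, lay between 4.61 and 5.21 and was called in no comparison. Dkk2, which also binds these co-receptors, was dim throughout, and was lower in Adult than at E12 (log2 -0.99, adjusted p = 7.6e-05). It fell by 0.89 from P2 to P10 (adjusted p = 0.00389), a call that did not hold without P10 replicate 2.

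**Figure D4:**
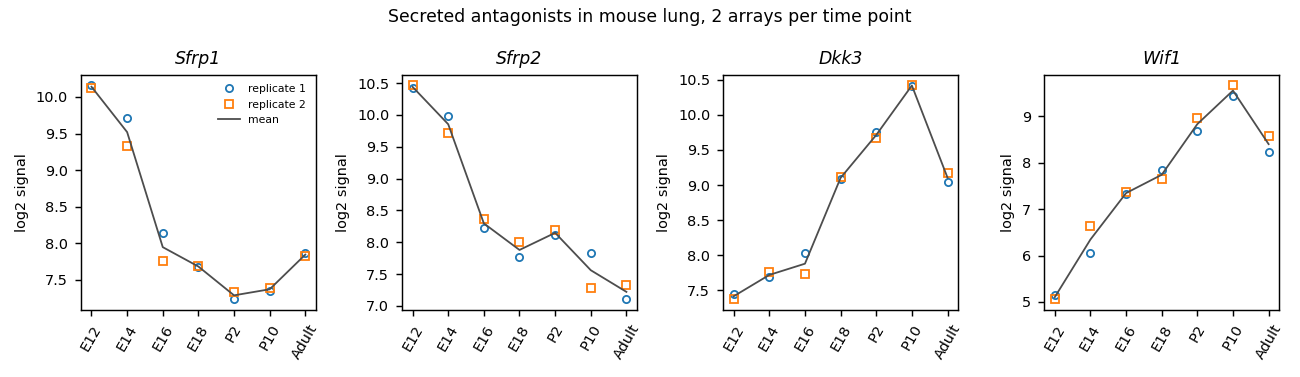
Log2 signal (y axis, own scale for each gene) of Sfrp1, Sfrp2, Dkk3 and Wif1 on every array by time point (x axis), with replicate 1 as circles, replicate 2 as squares and the mean as a line. Sfrp1 and Sfrp2 drop between E14 and E16, and Dkk3 and Wif1 climb to 10.42 and 9.56 at P10.

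Both P10 arrays lay above the other 12 arrays in 6 members, Wnt4, Wnt5a, Wnt11, Fzd1, Dkk3 and Wif1, against 4.47% of all genes. The 6 are 3 ligands, 1 receptor and 2 secreted antagonists. The mean log2 signal of 7 mesenchymal markers was also highest at P10, at 11.98 and 12.08, and was 11.24 and 11.18 in Adult, with 6 of 7 called lower from P10 to Adult and 5 of 7 called higher from P2 to P10. Over all genes, 14.9% were called lower from P10 to Adult and 4.82% higher from P2 to P10. The part of mesenchymal content in the P10 peaks was not tested.

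Among the intracellular modulators Nkd1 stood out by its step at E18. Nkd1, a Dishevelled-binding feedback inhibitor, was 8.66 and 8.70 at E12, 8.94 and 8.92 at E14, 8.40 and 8.57 at E16, and 11.16 and 10.88 at E18. It was 10.06 and 10.02 at P2, 10.04 and 10.14 at P10, and 10.49 and 10.44 in Adult. Both E18 arrays lay above all others, and every array from E18 on lay above every earlier one. E18 was 5.80-fold higher than E16 (log2 2.54, SE 0.102, adjusted p = 9.98e-10) and 1.97-fold higher than P2 (log2 of P2 minus E18 -0.98, adjusted p = 3.20e-05).

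Axin2, a scaffold of the beta-catenin destruction complex and a common readout of canonical signaling, was 8.67 and 8.70 at E12, 8.83 and 8.74 at E14, 8.15 and 8.43 at E16, and 9.32 and 8.89 at E18. It was 8.78 and 8.76 at P2, 8.83 and 8.79 at P10, and 8.60 and 8.35 in Adult. Both E18 arrays lay above all others, replicate 1 by more than replicate 2. The step from E16 was 0.82 (SE 0.138, adjusted p = 0.000290), and the ends did not pass the test (log2 -0.22, adjusted p = 0.191). A dimmer probe set of Axin2 gave 0.49 for the step from E16 (adjusted p = 0.0145) and -0.59 between the ends (adjusted p = 0.00271). Axin2 did not reach the Range of 1.2.

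Nkd2, a relative of Nkd1, was 6.78 and 6.74 at E12, 6.69 and 6.84 at E14, 6.55 and 6.57 at E16, and 6.94 and 7.12 at E18. It was 7.12 and 7.22 at P2, 7.33 and 7.13 at P10, and 7.43 on both Adult arrays, above all others. Adult minus E12 was 0.67 (SE 0.1, adjusted p = 4.96e-05). Its step of 0.47 to E18 (adjusted p = 0.00184) was 0.13 (adjusted p = 0.441) by the probe set of largest spread. Axin1, the constitutive relative of Axin2, was called only from E14 to E16 (-0.41, adjusted p = 0.0125), and not without E14 replicate 1 or without E16 replicate 1.

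Notum, a secreted enzyme that inactivates Wnt proteins and is itself a feedback inhibitor, is no member and was singled out after its values were seen. It was 6.63 on both E16 arrays, 8.70 and 8.43 at E18, and 7.35 and 7.32 at P2. Its E18 arrays were the highest of all, with steps of 1.94 from E16 (SE 0.109, adjusted p = 1.45e-08) and -1.23 to P2 (adjusted p = 7.69e-06). The 7 Wnt target genes listed for the rest of the pathway, among them Myc, Mycn and Cd44, did not share this rise. Of them 0 were called higher and 5 lower at E18 than at E16, against 24.8% and 21.6% of all genes. Their median log2 difference was -0.63. At E18 several cell type lists moved. The 5 smooth muscle markers were low, with mean log2 signals of 9.23 and 9.41 against 10.40 to 11.34 on the other arrays, and 4 of 5 were called lower than at E16, also without E16 replicate 1. Endothelial markers were higher at E18 than at E16 in 5 of 6 (median log2 difference 1.05) and mesothelial markers in 4 of 6 (0.82), with the same counts without that array. Mesenchymal markers were higher in 4 of 7 (0.30), and in 2 of 7 without it. These marker counts stand beside the same all-gene shares of 24.8% higher and 21.6% lower. The part of these marker shifts in the E18 values was not tested.

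**Figure D5:**
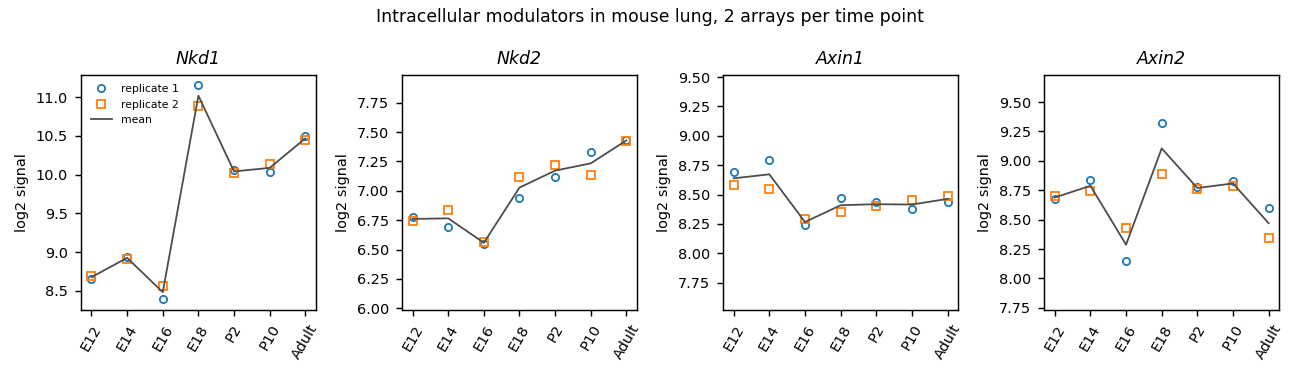
Log2 signal (y axis, own scale for each gene) of Nkd1, Nkd2, Axin1 and Axin2 on every array by time point (x axis), with replicate 1 as circles, replicate 2 as squares and the mean as a line. Nkd1 jumps from a mean of 8.48 at E16 to 11.02 at E18, and Axin2 goes from 8.29 to 9.11.

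The nuclear effectors varied least. Lef1, a DNA-binding partner of beta-catenin, was 8.56 and 8.75 at E12, 8.11 and 8.45 at E14, 7.61 and 7.52 at E16, and 7.53 and 7.02 at E18. It was 7.24 and 7.40 at P2, 7.60 and 7.78 at P10, and 7.59 and 7.64 in Adult. The E12 and E14 arrays lay above all later ones. Adult was 2.05-fold lower than E12 (log2 -1.04, SE 0.156, adjusted p = 5.09e-05). The step of -0.71 from E14 to E16 (adjusted p = 0.00684) was not called without E14 replicate 2.

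Tcf7l1 and Tcf7l2, the other measured TCF factors, were not dynamic. Tcf7l2 was 7.91 and 7.88 at E12, 7.96 and 7.70 at E14, 7.44 and 7.53 at E16, and 8.03 and 7.73 at E18. It was 7.83 and 7.80 at P2, 7.48 and 7.78 at P10, and 7.70 and 7.87 in Adult, so most ages overlapped. Its 0.40 step from E16 to E18 (SE 0.131, adjusted p = 0.0260) was the only call of this probe set and did not hold without either E16 replicate or without E18 replicate 1. Of its other 3 probe sets, 1 was lower at E18 than at E16 (log2 -0.39, adjusted p = 0.0207) and lower in Adult than at E12 (log2 -0.42, adjusted p = 0.00836), and 2 were higher at E18, so no direction is given for Tcf7l2. Tcf7l1 lay between 8.80 and 9.41 and was called in no comparison, while its second probe set was -0.44 between the ends (adjusted p = 0.0311).

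Ctnnb1, which encodes beta-catenin, was high on every array, from 13.45 to 13.81. Its Adult minus E12 difference was 0.29 (adjusted p = 0.00865) by the probe set used, -0.10 (adjusted p = 0.545) by a second and -0.66 (adjusted p = 0.00204) by another. No direction is therefore given for Ctnnb1, which with Lrp6 made the 2 members whose probe sets were called in opposite directions between E12 and Adult.

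Step by step, few members moved between E12 and E14. Wif1 (1.24, adjusted p = 0.00178) and Fzd6 were higher at E14, 2 members against 3.41% of all genes, and Wnt2 and Sfrp1 were lower, 2 members against 0.918%. Of these 4, the Wif1 call alone held whichever array was left out. The count of called members was 1 without E12 replicate 2, 2 without E14 replicate 1 and 1 without E14 replicate 2.

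From E14 to E16, 5 members were higher (Wnt5a, Fzd4, Fzd5, Fzd6 and Wif1), against 9.95% of all genes. Lower were 10, against 10.6%, among them Wnt7b, Fzd3, Fzd7, Ror1, Sfrp1, Sfrp2 and Lef1. The remaining 3 were Axin1, Axin2 and Nkd1, all of them negative regulators inside the cell. Without E16 replicate 1 the counts were 3 higher and 6 lower, and the calls of Axin1 (-0.38 without that array, -0.41 with it), Axin2 (-0.36 and -0.50) and Nkd1 (-0.36 and -0.44) were lost. Without E14 replicate 1 they were 3 higher and 5 lower.

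From E16 to E18, 11 members were higher, against 24.8% of all genes, and 7 lower, against 21.6%. By the probe sets used, the higher ones were Fzd4, Fzd5, Fzd6, Fzd8, Lrp5, Lrp6, Dkk3, Axin2, Nkd1, Nkd2 and Tcf7l2. No ligand was among them, while the second Wnt7a probe set was 1.09 higher (adjusted p = 1.89e-05). Another Tcf7l2 probe set was called lower in this step. The other Lrp6 probe set (0.21, adjusted p = 0.393) and the Nkd2 probe set of largest spread (0.13, adjusted p = 0.441) were not called. The lower members were Wnt2, Wnt7b, Wnt11, Fzd3, Ror1, Ror2 and Frzb. The ligands had a median difference of -0.14 and the receptors of 0.23, beside 0.03 over all genes. Without E16 replicate 1 the counts were 10 higher and 6 lower.

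From E18 to P2, across birth, 5 members were higher (Wnt4, Wnt5a, Wnt11, Dkk3 and Wif1), against 8.58% of all genes, and 3 were lower (Lrp6, Ror2 and Nkd1), against 10%. All 5 are secreted proteins, 3 ligands and 2 antagonists. By the probe set of largest spread neither Wnt4 (0.39, adjusted p = 0.123) nor Wnt5a (0.38, adjusted p = 0.0890) was called. The Wnt4 call was also lost without P2 replicate 2. Without P2 replicate 2 the count of called members was 5 in place of 8. Of the lower ones, Ror2 was -0.48 (adjusted p = 0.0458) and was not called when any of 9 arrays was left out in turn.

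From P2 to P10, 5 members were higher (Wnt5a, Wnt11, Ror1, Dkk3 and Wif1), against 4.82% of all genes, and 2 were lower (Sfrp2 and Dkk2), against 4.37%. Ror1 rose by 0.49 (adjusted p = 0.0122), and its call was lost without P2 replicate 2 or without P10 replicate 2. The Sfrp2 difference of -0.59 (adjusted p = 0.0431) was lost when any of 7 arrays was left out. The count of called members was 4 without P2 replicate 2 and 3 without P10 replicate 2, and the calls of Wnt5a, Wnt11 and Dkk3 held in both.

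From P10 to Adult, 5 members were higher (Fzd4, Fzd5, Lrp5, Sfrp1 and Nkd1), against 16.8% of all genes, and 13 were lower, against 14.9%. The lower ones were 5 ligands (Wnt2, Wnt4, Wnt5a, Wnt5b and Wnt11), 6 receptors (Fzd1, Fzd2, Fzd3, Lgr4, Ror1 and Ror2) and the antagonists Dkk3 and Wif1. Of these, Fzd2 was -0.41 (adjusted p = 0.0455) and was not called when any of 12 arrays was left out in turn. The Lgr4 call was lost for 3 arrays and the Wnt4 call for 2. The median difference was -0.53 over the ligands, -0.18 over the receptors and 0.01 over all genes. No ligand was called higher by the probe sets used, while the second Wnt7a probe set was 0.54 higher in Adult (adjusted p = 0.00868). In place of 5 higher members there was 1 without Adult replicate 2, there were 2 without P10 replicate 2, and there were 3 without P10 replicate 1 or without Adult replicate 1.

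The rest of the pathway was read from a list of 78 genes, 77 of them on the array and 56 with Max above 7. Of the 77, 18 were dynamic, and from E12 to Adult 21 were higher and 27 lower, beside shares over all genes of 26.7%, 35% and 30.2%. Rspo2, an R-spondin that binds the Lgr receptors, fell most, from 10.06 and 10.32 at E12 to 6.46 and 6.70 at E16 and 5.52 and 4.61 in Adult (log2 -5.13, SE 0.228, adjusted p = 2.28e-10). The next falls were in 2 proliferation genes regulated by Wnt signals, Mycn (-3.03, adjusted p = 3.87e-09) and Myc (-2.18, adjusted p = 1.29e-08).

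The largest rises in that list were in Cd44, an adhesion receptor and Wnt target (2.25, adjusted p = 2.68e-10), and in the planar polarity genes Prickle1 (2.24, adjusted p = 3.19e-10) and Prickle2 (1.61, adjusted p = 2.56e-09). Of 10 planar polarity genes 6 were dynamic, with 5 higher and 3 lower in Adult. Of 20 genes of the cytoplasmic relay and destruction complex 1 was dynamic, with 3 higher and 9 lower. The shares over all genes are those given for the whole list, and nothing is read from such small counts. Of 11 other Wnt ligands 2 had Max above 7 and 1 was dynamic.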

How the data were processed

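RNA of pooled whole lungs was measured on 14 Affymetrix whole-genome mouse arrays. The authors deposited normalized log2 values. Their methods name Robust Multichip Average and the processing notes name Partek 6.4 with GCRMA, so it is not known which gave the values. Arrays hold no read depth, and their number limits the precision.

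The 64 control probe sets were left out. Analyses used R 4.3.3 and limma 3.58.1. A model with 1 mean per time point was fitted to all 45037 probe sets (residual df 7, prior df 6.04), with Benjamini-Hochberg adjusted p over all of them, and differences were called at an adjusted p under 0.05. Gene names came from the platform annotation, which gave 34945 probe sets 1 symbol, 932 several and 9160 none. The script was tested on simulated data. Full values are given for the 2 to 4 members of each role with the largest Range, and differences between E12 and Adult for the 3 largest rises and falls in the rest of the pathway. The marker lists were epithelium, mesenchyme, endothelium, mesothelium, T cells and thymus, heart muscle, smooth muscle, cartilage and skeletal muscle. A pattern was falling or rising at a Pearson r of -0.8 or lower or 0.8 or higher with the order of ages. The members and lists were chosen with earlier results of these data known. Alternatives were leaving out each array, a replicate block, other probe sets, filters, normalizations and tests.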

Additional observations from a re-analysis of the deposited data

How the results depend on the processing

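Of 98 called member differences, 63 held whichever of the 14 arrays was left out, and 35 were lost at least once. With 1 array left out in turn, the dynamic count was 18 throughout. The counts of called members ran from 25 to 28 for Adult against E12, 1 to 5 for E14 against E12, 8 to 17 for E16 against E14, and 16 to 20 for E18 against E16. They ran from 5 to 9 for P2 against E18, 3 to 8 for P10 against P2, and 13 to 20 for Adult against P10. In these fits the lone array of an age is assumed to vary like the others. Fitting only probe sets with Max above 7 gave 7 called members for E14 against E12 in place of 4. The adjusted p alone gave 32 dynamic members in place of 18, since it drops the Max and Range limits. Shares over all genes were not computed for either setting, so these counts have no background beside them. A spline with 3 degrees of freedom gave 17. With the probe set of the largest spread, Ctnnb1 reversed between E12 and Adult, to -0.66 (adjusted p = 0.00204), and 4 other calls were lost. Every other direction was kept under the alternatives run.

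Replicate numbers gave no clear sign of pairing the samples, and the labels do not say whether they do. Deviations of replicate 1 from the time-point mean correlated between -0.267 and 0.123 over 21 pairs of ages, over 0.1 in 2. Such correlations cannot exclude pairing. With the number as a replicate block, 95 of the 98 calls held, and Ror2 (P2 against E18), Sfrp2 (P10 against P2) and Fzd2 (Adult against P10) were lost. The block left 18 dynamic members, 28 called for Adult against E12, 4 for E14 against E12, 15 for E16 against E14, 18 for E18 against E16, 7 for P2 against E18, 6 for P10 against P2 and 17 for Adult against P10. Quantile normalization lost 1 of the calls and centring arrays on their median 3.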

Other observations

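Markers of further tissues and cells, in the lung or next to it, differed by age in these whole-organ samples. Of 6 mesothelial genes, which mark the lung's outer lining and which hold Wt1, 2 were lower and 1 higher at E14 than at E12, and 4 were higher and none lower at E18 than at E16. Of 11 T cell and thymus genes on the array, 7 were higher and none lower in Adult than at E12. Among them, the T cell gene Cd3d was 5.72 and 5.39 at E12 and 8.35 and 8.63 in Adult. The thymus gene Rag1 was 3.16 and 3.12 at E12 and 3.40 and 3.25 in Adult. Of 8 heart muscle genes 7 were higher at E16 than at E14, and 6 were without E16 replicate 1. Of 5 cartilage genes, 2 were higher and 2 lower in Adult than at E12. Of 5 skeletal muscle genes, all with Max at 7 or below, 4 were lower in Adult than at E12, and 2 were without E12 replicate 2. The mean log2 signal of that list was 6.39 in E12 replicate 2, 5.42 in E12 replicate 1 and 5.03 to 5.52 on the later arrays. Beside these counts, 35% of all genes were called higher and 30.2% lower in Adult than at E12. The shares were 3.41% higher and 0.918% lower at E14 against E12, and 24.8% and 21.6% at E18 against E16. At E16 against E14, 9.95% of all genes were higher. Nothing is read from the cartilage counts.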
